A study of Mus musculus with 10 samples.

Results

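Chemokines are small secreted or membrane-bound proteins that direct the movement of leukocytes by binding G protein-coupled receptors. The brain's resident macrophages, the microglia, make several of them when they are activated, among them ligands of CCR1 and CCR2, and they carry CX3CR1, the receptor of the neuronal ligand fractalkine. Many CC chemokine genes of the mouse lie side by side as copies of an ancestral gene, so that neighbours often share a structure.

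The 10 genes described here are the chemokine ligands Ccl2, Ccl3, Ccl4, Ccl5, Ccl6, Ccl9, Ccl12, Cxcl10, Cxcl16 and Cx3cl1, chosen by symbol from the 24421 symbols in the count files, and all 10 passed the filter on low counts. RNA was sequenced from a microglial fraction of the cortex of 9-month-old mice, with 3 libraries from WT mice, 4 from APP/PS1 mice and 3 from APP/PS1 mice injected with N-AS (APP/PS1+N-AS). APP/PS1 mice carry a transgene for human APP with the Swedish mutation and one for a mutant presenilin, and both APP/PS1 groups share them; the promoters that drive them are not given in the sources used here. N-AS is N-acetyl sphingosine, a lipid that the study describes as an acetyl donor to COX2, and it was given under the skin each day at a dose of 30 mg/kg over the last 8 weeks, starting at 7 months. The labels name no injection for the other groups, but the paper describes the APP/PS1 controls as given vehicle; for WT no injection is stated. Each library came from the pooled cortices of a pair of mice, dissociated with papain and separated on a density gradient, not sorted. Nothing in the labels says that libraries within a group were prepared on separate days, so p-values measure the spread between these pools.

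Total counts ran from 8805804 to 19432075 per library. The microglial marker list (10 genes, Csf1r and P2ry12 among them) was detected in every library. In reads scaled to a common library size (CPM), its summed level ran from 775 to 1091 in the WT libraries. It ran from 2253 to 2800 in those of APP/PS1 and from 1429 to 1798 in those with N-AS. Of the 10 markers, 8 were called higher in APP/PS1 than in WT, all but P2ry12 and Tmem119. Markers of neurons, astrocytes, oligodendrocytes and endothelial cells were present as well; in APP/PS1 against WT, 2 of 8 astrocyte markers were called higher, 2 of 8 oligodendrocyte markers lower, and 0 of 8 neuronal and 0 of 8 endothelial markers were called. Within each group, replicates 1 and 2 (library numbers 1 to 6 in the titles) were closer to each other than to the replicates among library numbers 7 to 10, and WT replicate 3 stood apart with neuronal markers at 4903 CPM against 1396 and 1683 in the other WT libraries. The female transcript Xist was read 33 to 37 times per WT library, 5253 to 11188 times per APP/PS1 library and 29, 7024 and 8848 times with N-AS, while 4 Y-linked genes summed to 1492 to 3700, 13 to 690 and 470 to 2377 reads, although the methods name male mice. Xist separated WT from APP/PS1 without overlap, so the parts of sex and genotype cannot be told apart in that comparison. N-AS replicate 3, the library with 29 Xist reads, was the lowest N-AS library for Ccl3, Ccl4, Ccl5, Ccl6, Ccl9, Cxcl10 and Cxcl16. It was the highest for Ccl2, Ccl12 and Cx3cl1. The same library had the lowest microglial marker sum of the N-AS libraries, 1429 CPM against 1674 and 1798 CPM. No other N-AS library was among library numbers 7 to 10. The part of sex in the results below was not tested.

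CPM values here are scaled by TMM, a method that sets libraries to a common level from the bulk of the genes. Changes are log2 fold changes from edgeR's quasi-likelihood test, adjusted by the Benjamini-Hochberg method over 18727 genes, and a gene is called at an adjusted p under 0.05. In bulk RNA, fewer cells of a type and less RNA per cell cannot be told apart.

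Of the 10 ligands, 6 were called higher in the microglial fraction of APP/PS1 mice. These were Ccl6, Ccl4, Ccl3, Cxcl10, Cxcl16 and Ccl12, 6 of 10 members where 3.47% of all genes tested were called in either direction. Scaled to microglial markers in place of TMM, as given further on, Ccl6, Ccl4 and Ccl3 kept the call and Ccl12 turned. None of the 10 fell past the threshold with TMM. In 7 of the 10, every APP/PS1 library lay above every WT library, against 8.15% of all genes; the seventh was Ccl2. Across the members the median log2 fold change was 1.28, against -0.07 over all genes tested. Over the 10 microglial markers it was 1.35, with 8 called higher. The plot of CPM in each library shows the values behind these counts.

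**Figure D1:**
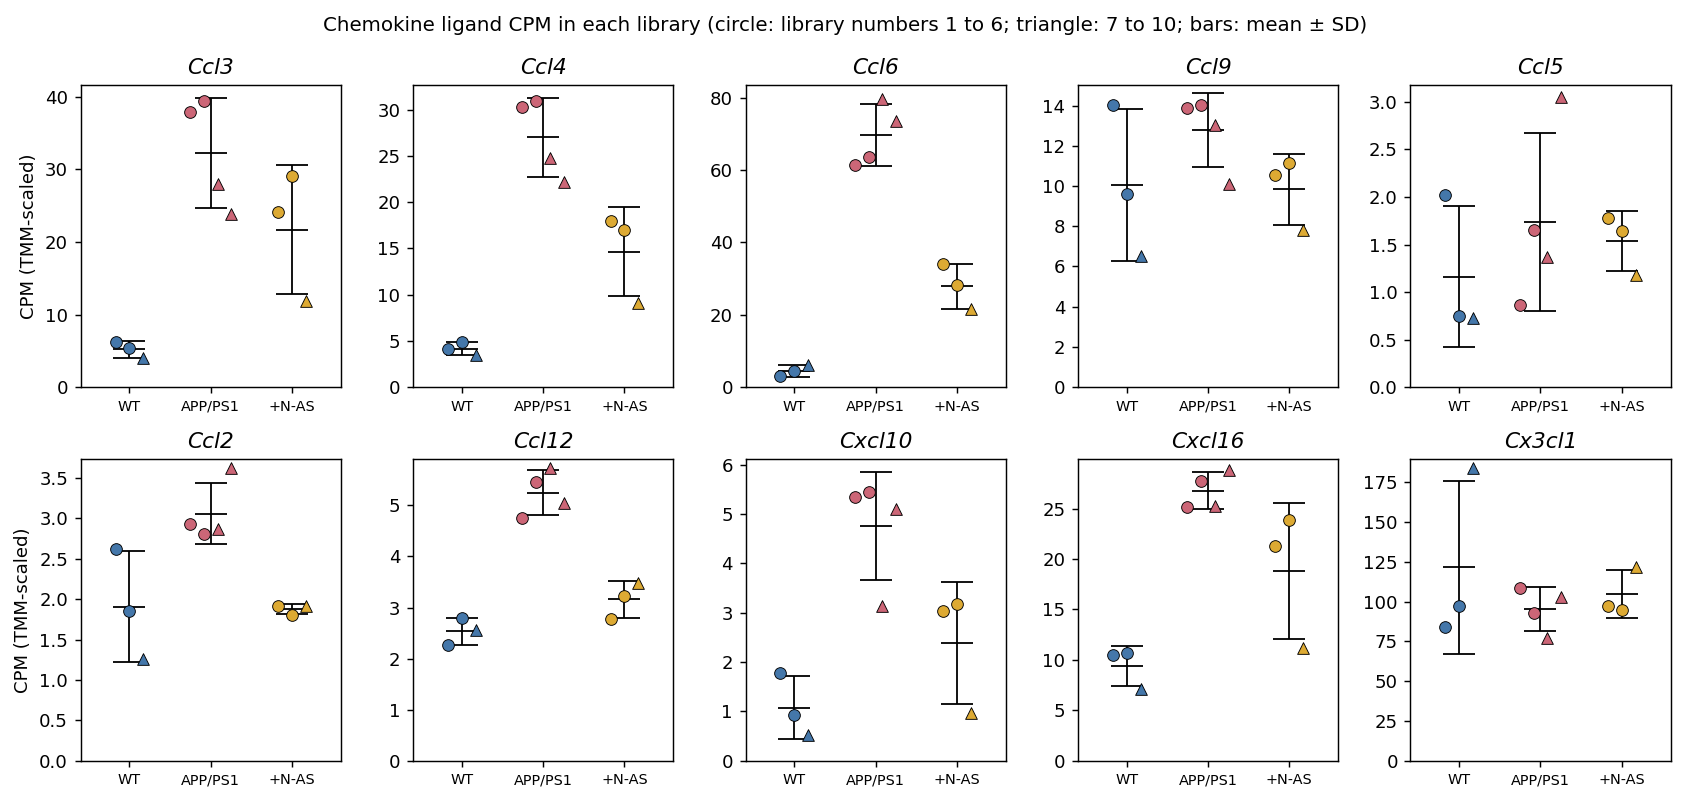
TMM-scaled CPM (y axis, from 0, separate for each gene) of the 10 chemokine ligands in the WT, APP/PS1 and APP/PS1+N-AS libraries (x axis); points are libraries, bars are mean ± SD, circles are library numbers 1 to 6 and triangles 7 to 10. Ccl3, Ccl4, Ccl6, Ccl12, Cxcl10, Cxcl16 and Ccl2 have every APP/PS1 library above every WT library, and Cx3cl1 has 1 WT library at 184 CPM above all others.

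On chromosome 11 (GRCm38), Ccl5, Ccl9, Ccl6, Ccl3 and Ccl4 lie within 138906 bases from the start of Ccl5 to the end of Ccl4, and Ccl6 (chr11:83587882-83593087, minus strand) and Ccl9 (chr11:83572919-83578636, minus strand) are neighbours 9245 bases apart. Ccl6 and Ccl9 encode CC chemokines that bind CCR1. Because their responses differed, the 250 bases before the RefSeq start of each are shown, from GRCm38.p6 on the minus strand, at chr11:83593088-83593337 for Ccl6 and at chr11:83578637-83578886 for Ccl9, with motif matches in capitals.

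Ccl6: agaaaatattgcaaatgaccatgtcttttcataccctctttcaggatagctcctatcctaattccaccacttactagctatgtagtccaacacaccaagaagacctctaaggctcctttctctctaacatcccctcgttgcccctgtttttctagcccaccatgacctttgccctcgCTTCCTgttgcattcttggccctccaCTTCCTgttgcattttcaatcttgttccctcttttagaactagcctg

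Ccl9: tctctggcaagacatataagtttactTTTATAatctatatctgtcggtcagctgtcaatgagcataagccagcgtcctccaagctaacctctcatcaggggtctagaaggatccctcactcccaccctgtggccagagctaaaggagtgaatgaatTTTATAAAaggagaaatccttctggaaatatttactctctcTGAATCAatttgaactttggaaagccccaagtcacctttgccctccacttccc

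The capitals in the Ccl6 sequence are the ETS core AGGAAG, read on the other strand as CTTCCT, at 73 and 47 bases before the start. This core is found at least once in 29.5% of 32851 RefSeq promoters of this length and at 2 or more places in 6.25%. Those in Ccl9 are the TATA motif TATAAA, at 3 places of which 2 overlap, on both strands (12.4% of promoters), and the AP-1 motif TGANTCA (6.75%). The closest stretch between the 2 sequences was 16 identical bases of 17. Searched on both strands, a match is a description of letters and not a bound site. RefSeq sequences were matched for 6 of the 10 members.

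Ccl6 was at 2.97, 4.40 and 6.12 CPM in the WT libraries. It was at 61.4, 63.7, 79.7 and 73.7 CPM in the APP/PS1 libraries and at 34.0, 28.2 and 21.5 CPM in the APP/PS1+N-AS libraries. The 3 groups did not overlap, with the N-AS-injected libraries between the others. Its log2 fold change in APP/PS1 against WT was 3.91 (standard error 0.26, adjusted p = 0.000103), a 15.0-fold difference and rank 2 by p among all genes tested. It stayed called in all 7 fits that left out 1 library of the 2 groups.

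Ccl9 was at 14.0, 9.60 and 6.51 CPM in WT. It was at 13.9, 14.1, 13.1 and 10.1 CPM in APP/PS1 and at 10.5, 11.1 and 7.83 CPM with N-AS. These groups overlapped, and its log2 fold change in APP/PS1 was 0.36 (standard error 0.25, adjusted p = 0.514).

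Within a library, the number of Ccl6 reads over the number of Ccl9 reads is free of the scaling between libraries. It was 0.212, 0.458 and 0.941 in the WT libraries, 4.42, 4.54, 6.11 and 7.30 in APP/PS1, and 3.23, 2.53 and 2.75 in APP/PS1+N-AS. Ccl9 had more reads than Ccl6 in each WT library and fewer in each of the others. The log2 ratio was 2.45 ± 0.35 (SD, n = 4) in APP/PS1 against -1.15 ± 1.08 (n = 3) in WT, a difference of 3.60 (2-sided exact permutation test p = 0.0286, the smallest this design allows, and 0.0858 adjusted over 9 such tests). With N-AS it was 1.49 ± 0.18 (n = 3), lower than in APP/PS1 by a difference of -0.96 (exact permutation p = 0.0286, adjusted 0.0858) and higher than in WT by 2.65 (p = 0.10, exact, the smallest for 3 against 3). The ratios were chosen after the values had been seen, and no adjusted p passed 0.05.

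Ccl3 and Ccl4, which encode MIP-1 alpha and MIP-1 beta, attract monocytes and T cells and are transcribed in opposite directions, Ccl3 (chr11:83647844-83649355, minus strand) 13228 bases from Ccl4 (chr11:83662584-83664683, plus strand). Ccl3 was at 6.18, 5.45 and 3.95 CPM in WT, at 37.9, 39.4, 27.9 and 23.9 CPM in APP/PS1 and at 24.2, 29.1 and 11.8 CPM in APP/PS1+N-AS. Ccl4 was at 4.16, 4.89 and 3.47 CPM in WT, at 30.3, 30.9, 24.7 and 22.1 CPM in APP/PS1 and at 17.9, 17.0 and 9.09 CPM in APP/PS1+N-AS. For both genes every APP/PS1 library was above every WT library, and the lowest value outside WT was that of N-AS replicate 3. Their log2 fold changes in APP/PS1 against WT were 2.65 for Ccl3 (standard error 0.33, adjusted p = 0.00188) and 2.69 for Ccl4 (standard error 0.26, adjusted p = 0.000545).

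Both genes were called in all 7 fits that left out a library. Reads of Ccl3 over reads of Ccl4 ran from 1.08 to 1.28 in APP/PS1, from 1.30 to 1.72 with N-AS and from 1.11 to 1.49 in WT, so that the 2 neighbours moved nearly together. The log2 ratio was higher with N-AS than in APP/PS1 by 0.29 (exact permutation p = 0.0286, adjusted 0.0858). The plot of count ratios shows both pairs.

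**Figure D2:**
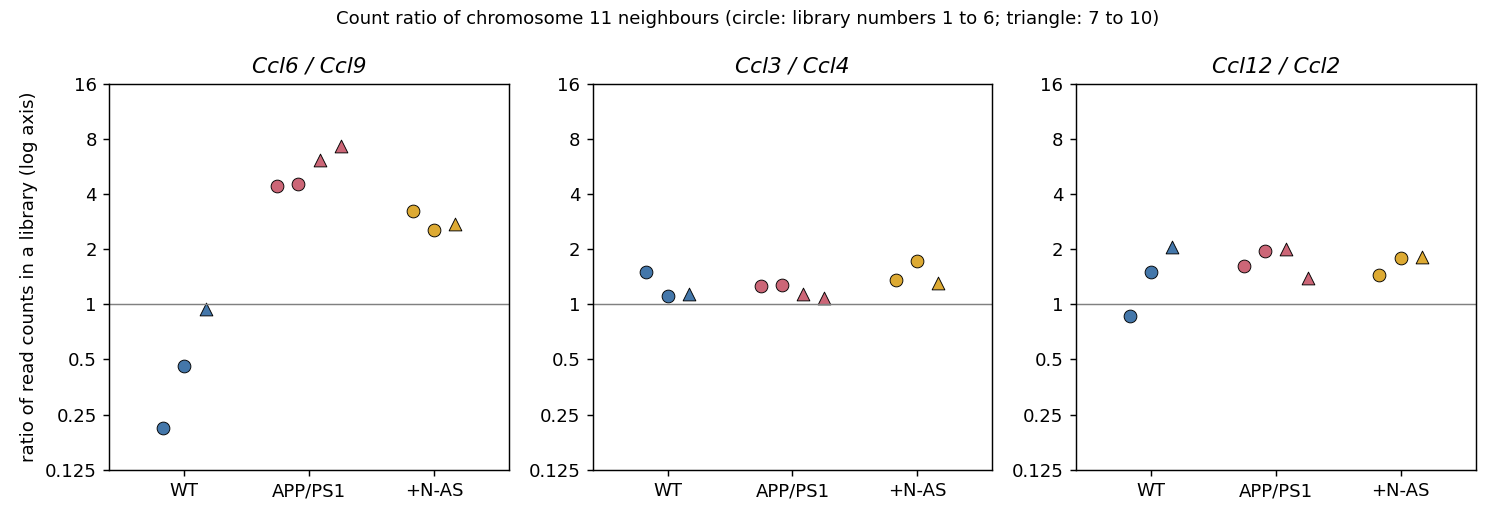
Ratio of read counts within each library (y axis, log scale) of 3 pairs of chromosome 11 genes, for the WT, APP/PS1 and APP/PS1+N-AS libraries (x axis); circles are library numbers 1 to 6, triangles 7 to 10, and the line marks a ratio of 1. Ccl6/Ccl9 is below 1 in each WT library and at 2.53 or above in the others, while Ccl3/Ccl4 runs from 1.08 to 1.72 over all libraries.

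Ccl5 (chr11:83525778-83530518, minus strand) encodes RANTES, a CC chemokine that is abundant in T cells. It had 10 to 64 reads per library, and was at 2.02, 0.74 and 0.72 CPM in WT, 0.86, 1.65, 1.37 and 3.05 CPM in APP/PS1 and 1.78, 1.64 and 1.18 CPM with N-AS. The groups overlapped. Its log2 fold change was 0.65 in APP/PS1 (standard error 0.53, adjusted p = 0.592). The approximate 95% interval of this value ran from -0.38 to 1.68. Of 8 markers of T and NK cells, 6 were measured well enough to test, and their summed level was 39.97 to 93.3 CPM in the WT libraries, 62.5 to 152 CPM in those of APP/PS1 and 62.6 to 98.4 CPM with N-AS. Most of this sum was Cd3d, at means of 68.4 CPM in WT, 84.4 CPM in APP/PS1 and 76.3 CPM with N-AS. The others had group means of 0.52 to 2.94 CPM, so the sum follows mainly 1 gene and is no measure of T cell content.

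Ccl2 (chr11:82035571-82037453, plus strand) and Ccl12 (chr11:82101845-82103400, plus strand) encode MCP-1 and MCP-5, which are among the ligands of CCR2 that draw monocytes, and lie 64391 bases apart. The bases before the start of Ccl12, on the plus strand at chr11:82101595-82101844, are shown because Ccl12 was the one of the pair that was called; the capitals mark 3 matches to the ETS core (3 or more in 1.22% of promoters) and 1 to the TATA motif, 31 bases before the start.

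Ccl12: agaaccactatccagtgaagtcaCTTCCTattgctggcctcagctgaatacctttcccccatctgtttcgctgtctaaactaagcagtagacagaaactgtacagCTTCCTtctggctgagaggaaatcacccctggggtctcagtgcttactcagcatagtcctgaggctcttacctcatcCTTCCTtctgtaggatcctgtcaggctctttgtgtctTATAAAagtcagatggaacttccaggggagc

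Ccl12 was at 2.26, 2.79 and 2.56 CPM in WT, at 4.75, 5.45, 5.74 and 5.05 CPM in APP/PS1 and at 2.77, 3.23 and 3.47 CPM in APP/PS1+N-AS. All APP/PS1 libraries lay above all others, and the WT and N-AS libraries overlapped. Its log2 fold change in APP/PS1 against WT was 1.04 (standard error 0.20, adjusted p = 0.0195), on 19 to 106 reads per library. The call was lost in 4 of the 7 fits that left out 1 library (without WT replicate 1, adjusted p = 0.0586; without APP/PS1 replicates 2, 3 or 4, adjusted p = 0.0530, 0.0651 and 0.0576) with the replicate block (0.0662) and in the fit of these 2 groups alone (0.0554), and the direction turned on the scale of the microglial markers (-0.23).

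Ccl2 was at 2.61, 1.86 and 1.25 CPM in WT, at 2.93, 2.81, 2.87 and 3.62 CPM in APP/PS1 and at 1.91, 1.80 and 1.92 CPM with N-AS. Its APP/PS1 libraries lay above all others, and the N-AS libraries fell inside the WT range. It did not pass the test (log2 fold change 0.71, standard error 0.30, adjusted p = 0.246). The ratio of Ccl12 to Ccl2 reads gave no difference between groups that passed an exact permutation test (APP/PS1 against WT, p = 0.486).

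Cxcl10, an interferon-inducible ligand of CXCR3, is on chromosome 5 (chr5:92346638-92348889, minus strand). The bases before its start, on the minus strand at chr5:92348890-92349139, are shown because they held matches to 3 of the motifs searched.

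Cxcl10: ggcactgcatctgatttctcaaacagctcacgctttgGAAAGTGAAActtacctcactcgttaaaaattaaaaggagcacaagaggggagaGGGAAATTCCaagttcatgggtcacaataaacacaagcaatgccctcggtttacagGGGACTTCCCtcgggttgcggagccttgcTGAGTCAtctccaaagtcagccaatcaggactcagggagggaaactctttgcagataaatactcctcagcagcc

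In order, the capitals mark the interferon response motif (GAAA, 2 bases of any kind, GAAA; 2.98% of promoters), 2 matches to the kB motif (GGGA, 2 bases of any kind, T, 1 base of any kind, CC), and the AP-1 motif. The kB motif occurred in 3.33% of promoters and at 2 or more places in 0.107%. No motif of the 5 searched was matched in the Ccl3 window, which says nothing of the factors that act on that gene.

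Cxcl10 was at 1.78, 0.93 and 0.53 CPM in WT, at 5.35, 5.45, 3.14 and 5.09 CPM in APP/PS1 and at 3.03, 3.18 and 0.96 CPM in APP/PS1+N-AS. The APP/PS1 libraries lay above WT without overlap, and N-AS replicate 3 fell within the WT range. On 11 to 107 reads, its log2 fold change reached 2.22, with a standard error of 0.50 and an adjusted p of 0.0390. It passed in only 1 of the 7 fits that left out a library, that without WT replicate 1; the other 6 gave adjusted p-values of 0.0586 to 0.111. Exons of Cxcl10 share 133 bases with Art3 on the opposite strand, and the strand setting of the counting is not stated.

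Cxcl16 and Cx3cl1 are made as membrane-bound proteins that can be shed, Cxcl16 mainly by ADAM10 and Cx3cl1 by ADAM10 and ADAM17, and bind CXCR6 and CX3CR1. Cxcl16 (chr11:70453983-70459984, minus strand) was at 10.5, 10.6 and 7.09 CPM in WT, at 25.2, 27.8, 25.2 and 28.9 CPM in APP/PS1 and at 21.3, 23.9 and 11.2 CPM in APP/PS1+N-AS. The 3 groups did not overlap. Its log2 fold change in APP/PS1 was 1.52 (standard error 0.25, adjusted p = 0.00857), called in all 7 fits that left out a library. Its exons share 552 bases with Zmynd15 on the opposite strand.

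Cx3cl1 (chr8:94772009-94782427, plus strand) encodes fractalkine, which neurons make in quantity. It had the highest CPM of the members in every library but APP/PS1 replicate 3, at 84.0, 97.0 and 184 CPM in WT, 108, 92.7, 77.1 and 103 CPM in APP/PS1 and 97.3, 94.7 and 122 CPM with N-AS. The groups overlapped (log2 fold change -0.35, standard error 0.25, adjusted p = 0.532). WT replicate 3, with the highest Cx3cl1, also had the most neuronal marker RNA (4903 CPM), and N-AS replicate 3 was second in both (122 CPM and 2832 CPM). Without WT replicate 3 the log2 fold change was 0.08. The part of neuronal RNA in Cx3cl1 was not tested.

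**Figure D3:**
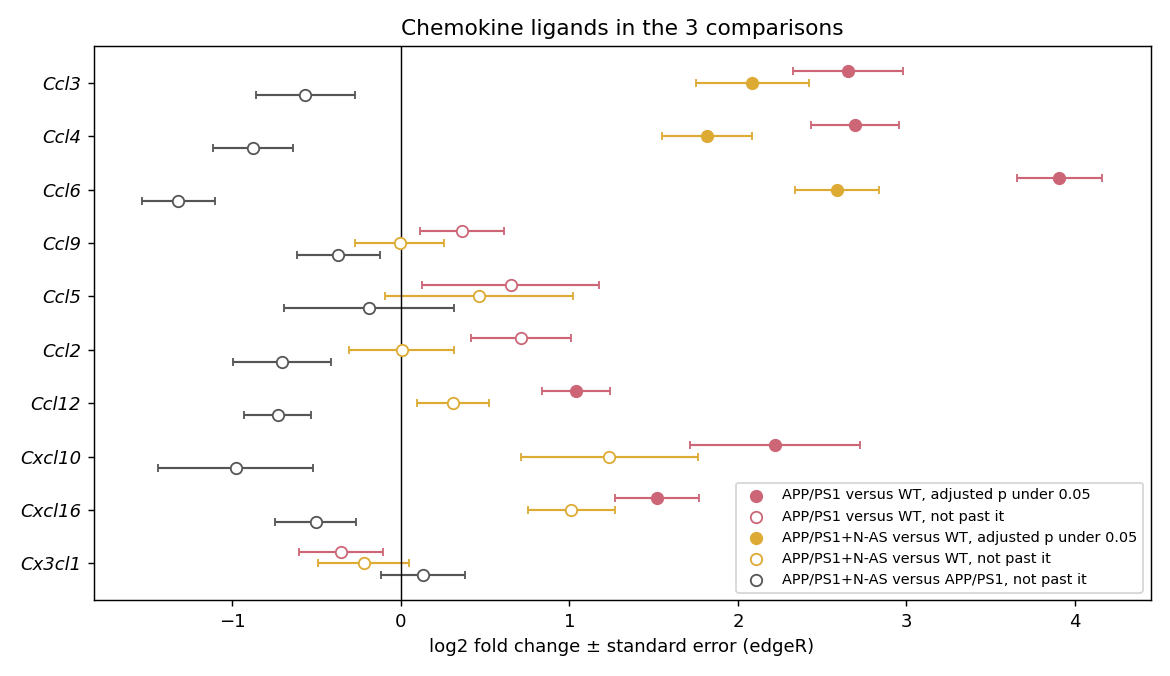
Log2 fold change ± standard error from edgeR (x axis) of the 10 ligands (y axis) in the 3 comparisons; filled points passed an adjusted p of 0.05 and open points did not. Ccl6 reaches 3.91 in APP/PS1 against WT, and 9 of 10 points for APP/PS1+N-AS against APP/PS1 lie below 0, all open.

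Divided by the length of the merged exons, the order of the ligands changed with the group. In WT, Cx3cl1 led with 30.9 ± 13.8 CPM per kb (SD, n = 3) and Ccl3 followed with 6.78 ± 1.48, which overlapped Ccl4 at 6.32 ± 1.08; Ccl6 was seventh of 10 with 2.51 ± 0.88. In APP/PS1, Ccl3 (42.2 ± 9.87, n = 4), Ccl4 (40.9 ± 6.48) and Ccl6 (38.8 ± 4.77) could not be put in an order, since their libraries overlapped, and all 3 lay above Cx3cl1 (24.3 ± 3.51). Cxcl10 and Ccl5 were the lowest in APP/PS1, at 2.11 ± 0.48 and 1.80 ± 0.97. With N-AS, Ccl3 (28.3 ± 11.6, n = 3), Cx3cl1 (26.6 ± 3.79), Ccl4 (22.2 ± 7.34) and Ccl6 (15.5 ± 3.48) overlapped in turn.

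The comparison of APP/PS1+N-AS with APP/PS1 addressed whether the lipid moved these genes. No gene of 18727 was called, so the background share is 0.0% and no ligand was called either; 1653 genes had an unadjusted p under 0.05, limma on quantile-normalized values called 0 genes and DESeq2 called 73, Ccl6 among them. Of the 10 ligands, 4 were lower at an unadjusted p under 0.05, against 4.05% of all genes, and in 5 every N-AS library lay below every APP/PS1 library, against 6.46%. These 5 were Ccl2, Ccl4, Ccl6, Ccl12 and Cxcl16. The median log2 fold change of the 10 was -0.64, against -0.01 over all genes. Over the 10 microglial markers the median was -0.63, with all 10 below 0 and 7 lower at an unadjusted p under 0.05.

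By edgeR, the value of Ccl6 was -1.32 on the log2 scale (standard error 0.22, unadjusted p = 8.89e-05, adjusted p = 0.405), rank 3 by p among all genes. DESeq2 gave an adjusted p of 0.000125 for it. By the same edgeR test, Ccl4 was at -0.88 (standard error 0.24, unadjusted p = 0.00345, adjusted p = 0.494) and Ccl12 at -0.73 (standard error 0.20, unadjusted p = 0.00374, adjusted p = 0.494). Ccl2 was at -0.71 by edgeR (standard error 0.29, unadjusted p = 0.0354, adjusted p = 0.534). Ccl3 (-0.57), Cxcl16 (-0.51), Cxcl10 (-0.98), Ccl9 (-0.37) and Ccl5 (-0.19) had unadjusted p-values of 0.0559 to 0.715, and Cx3cl1 was at 0.13. With the replicate number as a block, given only as an alternative edgeR fit, still no gene was called. In that fit 7 ligands had an unadjusted p under 0.05 in place of 4. Of all 18727 genes, 1472 had such a p in either direction with the block, against 1653 without it. Why the ligand count rose while that of all genes fell was not tested. The log2 fold change with the block was -1.01 for Ccl4 and -1.27 for Ccl6.

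Compared with WT, the microglial fraction of N-AS-injected mice had 3 ligands called higher (Ccl6, Ccl4 and Ccl3), where 0.187% of all genes were called. In 4, these and Cxcl16, every N-AS library was above every WT library, against 4.9% of all genes. The comparisons share libraries, so that each says something of the same values: APP/PS1 libraries are in the first 2 comparisons, and the N-AS libraries in the second and this one. The log2 fold changes were 2.59 for Ccl6 (standard error 0.25, adjusted p = 0.00593), 1.82 for Ccl4 (standard error 0.27, adjusted p = 0.0256) and 2.09 for Ccl3 (standard error 0.34, adjusted p = 0.0415). Leaving out 1 library kept Ccl6 in 5 of 6 fits, losing it without WT replicate 2 (adjusted p = 0.0548). The fit of these 2 groups alone ended all 3 calls (adjusted p = 0.133 for Ccl6, 0.253 for Ccl4 and 0.270 for Ccl3), and the replicate block ended that of Ccl6 (0.0509). Ccl3 and Ccl4 kept their call only in the fit without N-AS replicate 3, with adjusted p-values of 0.0696 to 0.233 and 0.0548 to 0.173 in the other 5.

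Libraries numbered 1 to 6 and 7 to 10 gave the same order for Ccl3, Ccl4, Ccl6, Cxcl10 and Cxcl16 (WT lowest, N-AS between, APP/PS1 highest, without overlap within a set). How many of all genes show this order was not counted. For Ccl6, the mean log2 difference between APP/PS1 and WT was 4.06 among numbers 1 to 6 and 3.62 among 7 to 10, and that between APP/PS1+N-AS and APP/PS1 was -1.01 and -1.83. For Ccl4 the 2 sets gave 2.73 and 2.71, then -0.81 and -1.35. The second set holds 1 WT and 1 N-AS library, so these groups have no spread there and cannot overlap each other.

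The ligands that rose did so beside the microglial markers. Scaled so that the markers had one mean level in every library, the median log2 fold change of all genes went from -0.07 to -1.35 in APP/PS1 against WT, and 101 of 16196 called genes were higher in place of 500 of 649. Relative to the markers, Ccl6 (log2 fold change 2.68), Ccl4 (1.41) and Ccl3 (1.35) were still higher at adjusted p-values of 8.99e-05, 0.000341 and 0.00153. Cxcl10 (0.90, adjusted p = 0.126) and Cxcl16 (0.22, adjusted p = 0.436) were no longer called, Ccl12 was at -0.23, and Ccl9 (-0.98) and Cx3cl1 (-1.56) were called lower. In APP/PS1+N-AS against APP/PS1, with the median of all genes at 0.54, Ccl6 was called lower on this scale (-0.79, adjusted p = 0.0365). By edgeR with TMM, the markers themselves changed unequally in APP/PS1 against WT. They ran from 0.36 for P2ry12 (adjusted p = 0.377) and 0.50 for Tmem119 (adjusted p = 0.181) to 1.89 for Laptm5. Ccl12 (1.04) and Cxcl16 (1.52) lay between these, so values on the marker scale depend on the markers chosen. The part of microglial content in the other ligands was not tested.

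**Figure D4:**
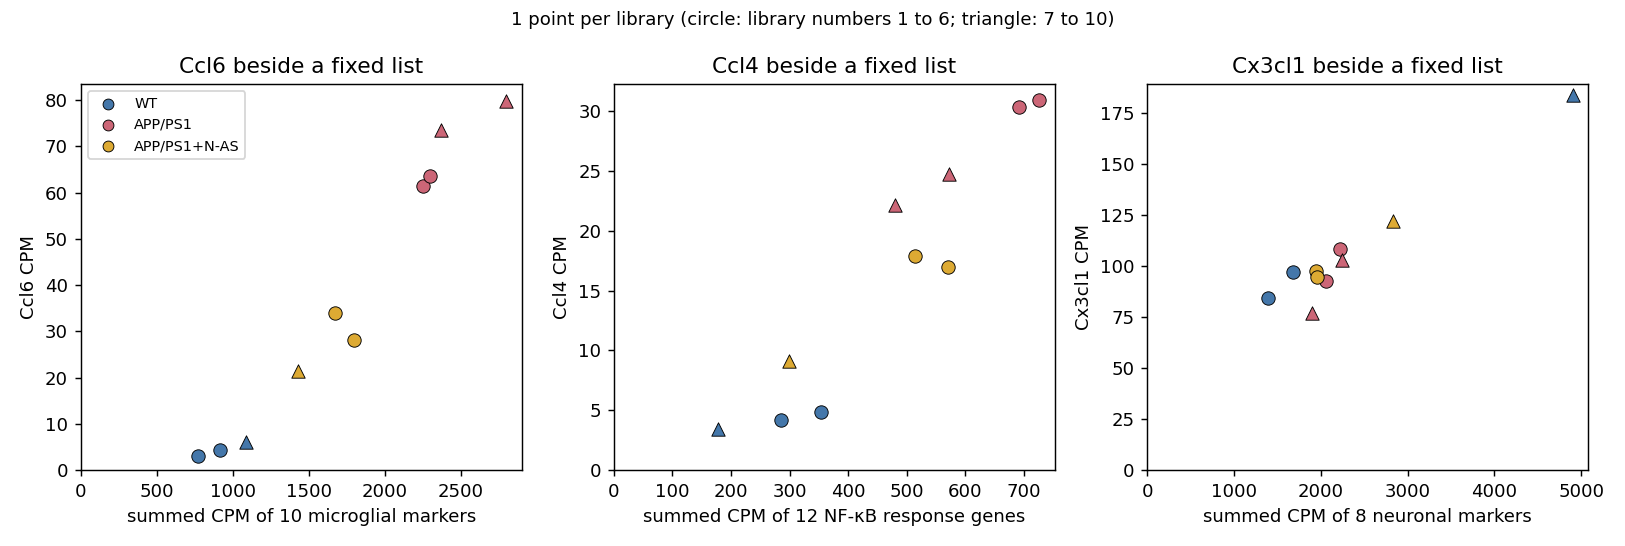
CPM of 1 ligand (y axis) against the summed CPM of a gene list (x axis) in the 10 libraries: Ccl6 and 10 microglial markers, Ccl4 and 12 NF-kB response genes, Cx3cl1 and 8 neuronal markers; colours are groups, circles library numbers 1 to 6 and triangles 7 to 10. WT libraries hold the lowest microglial sums (775 to 1091 CPM) and the lowest Ccl6, and WT replicate 3 stands alone at 4903 CPM of neuronal markers and 184 CPM of Cx3cl1.

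Genes around the ligands were read from lists. Among the receptors of the 10 ligands, 6 of 7 were tested and 1 was called: Cx3cr1, the fractalkine receptor and itself a microglial marker, was higher in APP/PS1 (249 ± 20.5 CPM, n = 4, against 133 ± 13.7 CPM, n = 3; log2 fold change 0.90, standard error 0.14, adjusted p = 0.00685). Ccr1 (-0.42), Ccr2 (0.12), Ccr3 (-0.15) and Cxcr6 (-0.03) were not called, on 3 to 46 reads per library for the first 3 of them and 94 to 230 for Cxcr6. Cxcr3, the receptor of Cxcl10, had 1 to 11 reads and was not tested.

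Among 5 decoy and atypical receptors, Ccrl2, a chemerin-binding receptor, was called higher in APP/PS1 (14.4 ± 3.15 CPM, n = 4, against 5.10 ± 1.53 CPM, n = 3; log2 fold change 1.52, standard error 0.26, adjusted p = 0.0107). The sheddase genes Adam17 (log2 fold change 0.53, adjusted p = 0.0573) and Adam10 (0.17, adjusted p = 0.502) were not. Of 30 other chemokine ligands, 21 passed the filter and 0 were called in any comparison. In APP/PS1 against WT, 3 of the 21 had an unadjusted p under 0.05 by edgeR, as did 3221 of all 18727 genes. By edgeR the 3 ligands were Ccl21b (log2 fold change 1.06, adjusted p = 0.0694), Ccl21c (0.58, adjusted p = 0.0892) and Cxcl2 (2.20, adjusted p = 0.107), named after their values were seen. In APP/PS1+N-AS against APP/PS1, 2 of the 21 were lower and 0 higher at an unadjusted p under 0.05 by edgeR, where 4.05% of all genes were lower. The 2 ligands were Ccl21c (-1.01, unadjusted p = 9.24e-05, adjusted p = 0.405) and Ccl21b (-1.48, unadjusted p = 0.000316, adjusted p = 0.455). Ccl21b and Ccl21c are near-identical copies whose reads the counting may split, so their values are uncertain.

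Of 12 response genes of NF-kB, the transcription factor of inflammatory induction, 6 were called higher in APP/PS1 and 0 lower, with a median log2 fold change of 0.99 over the 12. The 5 with the lowest p were Cd83 (2.17, adjusted p = 0.000631), Tnfaip3 (1.95), Il1b (2.30), Il1a (1.59) and Tnf (2.24). In APP/PS1+N-AS against APP/PS1, all 12 fold changes were below 0 and 0 were called. Of 12 interferon response genes 0 were called in any comparison, with a median of 0.67 in APP/PS1 against WT. At an unadjusted p under 0.05 by edgeR, 6 of these 12 were higher in that comparison and 0 lower. Of all 18727 genes, 3221 had such a p in either direction. Of 13 genes that respond to tissue dissociation 0 were called, and their summed level was 921 to 2714 CPM in WT and 1923 to 2933 CPM in APP/PS1. The lists of border macrophages and of monocytes and neutrophils had 0 calls among 7 and 6 genes tested.

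The genes whose log2 CPM followed each called ligand most closely over the 10 libraries were, for Ccl3, Rgs1 (Pearson r = 0.988), Osm (0.987) and Ccl4 (0.986), and for Ccl4, Cd83 (0.991), Plek (0.991) and Rgs1 (0.989). For Ccl6 they were Tyrobp, Slc15a3 and Ctsd, each at 0.992. Cxcl16 was closest to Apobec1 (0.989), with Dnajb13 (0.985) also among its 3 closest, Ccl12 to Ncl (0.977), Tram1 (0.963) and Dek (0.962), and Cxcl10 to Il20rb (0.966), B4galt1 (0.962) and Eif4ebp1 (0.961). The values describe the 10 libraries, which share the group differences, the scaling and the marker levels above.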

How the data were processed

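RNA of cortical microglial fractions was depleted of ribosomal RNA, made into stranded libraries and sequenced by the authors, who mapped read pairs with TopHat, extracted counts with bedtools and Bioconductor, and deposited these counts by gene symbol, not normalized. The annotation and the strand setting of the counting are not given in the sources used here. The submitters' processing notes also name edgeR and the build mm10. The labels gave groups and replicate numbers. The 10 files list 24481 lines; 103 lines sharing 43 symbols were summed, and no ligand was among them. All libraries differed beyond sampling noise.

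Genes passing filterByExpr (18727) were fitted with edgeR 4.0.16 in R 4.3.3 (TMM, 1 model of 3 groups, quasi-likelihood test, Benjamini-Hochberg adjustment, threshold 0.05). The common dispersion was 0.0752, a coefficient of variation of 27.4%. Log2 CPM used a prior count of 2. Exon lengths and positions came from GENCODE M21 (GRCm38), and promoters from RefSeq (GRCm38.p6). No molecular identifiers are named, so PCR copies cannot be told from separate molecules. Count ratios of 3 neighbour pairs, chosen after the values were seen, were compared by exact permutation tests. Scripts were tested on simulated data. Alternatives were DESeq2 1.42.0, limma 3.58.1, other scalings, filters, terms and each library left out in turn.

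Pairing comes from the replicate numbers in the labels; nothing says what they share. After removal of group means, same-numbered libraries of APP/PS1+N-AS and APP/PS1 correlated with r = 0.278, 0.142 and 0.309. Libraries of different numbers were not compared in this way, and the replicate numbers go with the library number sets. The values therefore cannot show that same-numbered libraries are pairs, and the block is given only as an alternative fit. APP/PS1 replicate 4 has no partner. The ligands and lists were chosen with earlier results of these data known. The named genes were the 10 ligands, the receptors and sheddases, the called genes of the other lists (at most 5 a list), and the 3 genes most alike to each called ligand. Ccl21b, Ccl21c and Cxcl2 and the cell type markers Cd3d, P2ry12, Tmem119 and Laptm5 were named besides, after their values were seen. Among the genes under this rule, 2 are not reported here singly.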

Additional observations from a re-analysis of the deposited data

Results flagged for a closer look

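In groups of 4 libraries, 2 ligands had a library far from the other 3. Ccl2 in APP/PS1 replicate 4 was at 3.62 CPM, with a gap to the nearest library of 0.846 of the group's range. Cxcl10 in APP/PS1 replicate 3 was at 3.14 CPM, with a gap of 0.844 of the range. The 4 APP/PS1 libraries were examined in this way for 18 genes, the 10 ligands, 6 receptors and 2 sheddases, and 2 were marked; chance marks about 1 in 20.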

How the results depend on the processing

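In APP/PS1 against WT, 4 to 5 ligands were called when 1 library was left out and 5 to 6 under the other settings. Ccl3, Ccl4 and Ccl6 were called in all of them. Scaled to microglial markers, the 5 called were Ccl3, Ccl4 and Ccl6 higher and Ccl9 and Cx3cl1 lower. Ccl12, Cxcl10 and Cxcl16 were not called there. All genes called ranged from 299 to 923 when 1 library was left out, and were 16196 scaled to microglial markers, 1296 with DESeq2, 326 with the replicate block, 1055 with library number sets as a term and 410 with only the 2 groups. In APP/PS1+N-AS against APP/PS1, 1 ligand (Ccl6) was called scaled to microglial markers and 1 with DESeq2; all genes called were 4452 and 73 there, and 0 to 1 when 1 library was left out. Against WT, the fraction of N-AS-injected mice had 5 ligands called scaled to microglial markers (Ccl3, Ccl4 and Ccl6 higher, Ccl9 and Cx3cl1 lower, with the median of all genes at -0.77), 0 with only the 2 groups fitted and 0 to 4 when 1 library was left out. All genes called there were 10079 scaled to microglial markers, 180 with DESeq2, 5 with the replicate block, 64 with library number sets, 2 with the 2 groups alone and 1 to 116 without 1 library. The block took away the call of Ccl6 (adjusted p = 0.0509). Same-numbered libraries of these groups gave r = -0.136, 0.348 and 0.240, and those of APP/PS1 and WT gave -0.485, 0.441 and -0.00962. What a replicate number stands for is not stated. Why the counts differed between settings was not tested.

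Directions turned, when scaled to microglial markers, for Ccl2 (-0.60), Ccl5 (-0.65), Ccl9 (-0.98) and Ccl12 (-0.23, called higher by TMM) in APP/PS1 against WT, for Ccl5 (0.30) and Ccl9 (0.16) in APP/PS1+N-AS against APP/PS1, and for Ccl2 (-0.77), Ccl5 (-0.35) and Ccl12 (-0.40) in N-AS-injected APP/PS1 against WT. Ccl5 turned in the second comparison also with limma (0.0184) and the replicate block (0.19). Against WT with N-AS, Ccl2 turned with upper-quartile factors (-0.0167) and the 2 groups alone (-0.00651), and ran from -0.23 to 0.28 when 1 library was left out; Ccl9 with DESeq2 (0.00124), at least 1 count in any library (0.0263), the block (0.0152) and library number sets (0.00803), and ran from -0.24 to 0.30 when 1 library was left out. Without 1 library, Cx3cl1 ran from -0.56 to 0.0812 in APP/PS1 and from -0.42 to 0.21 with N-AS, both against WT, and turned without WT replicate 3; Ccl5 ran from -0.40 to 0.24 in the second comparison. Ccl5 and Cxcl10 had the largest standard errors of the 10 ligands in each comparison, on 10 to 107 reads per library.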
